A study of Mus musculus with 18 samples.

Results

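The comparison described is the effect of serum response factor (SRF) deletion in hearts under phenylephrine (PE) at day 25, in cardiac ventricles of adult mice. It compares 6 of the 18 arrays of the series, 3 of SRFHKO hearts with PE and 3 of control hearts with PE. The spread of each gene was estimated over all 18 arrays. Hearts were taken as grouped by their titles, which call each heart a biological replicate. All mice were males of the strain labelled CR7BL6, about 10 weeks old, and all of them, controls included, had received 0.7 mg of tamoxifen by injection on each of 3 days. SRFHKO mice are the deletion mutants and the controls are SRF-flex2neo littermates. PE was given at 80 mg/kg/day by osmotic minipump starting on day 10 and ending on day 25 after the first injection. The SRFHKO and the control hearts of day 25 without PE, 3 arrays each, serve below for setting the deletion effect under PE beside that without it. The labels name neither the Cre transgene that tamoxifen acts on nor the cells in which it is active.

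SRF is a transcription factor of the MADS-box family that binds CArG boxes, short A/T-rich elements flanked by CC and GG, in the promoters of actin, sarcomere and immediate early genes. In heart muscle cells its activity depends on cofactors of the myocardin family and it is needed for the contractile apparatus. PE is an agonist of alpha-1 adrenergic receptors, which act through the G protein Gq, and chronic infusion is a standard way to cause pressure load and hypertrophy in mice. Hypertrophied and failing hearts are known to raise skeletal muscle actin (Acta1), beta myosin heavy chain (Myh7) and the natriuretic peptides (Nppa, Nppb), and to lower fatty acid oxidation genes.

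Of 12616 genes tested, 206 passed an adjusted p of 0.05 (limma, Benjamini-Hochberg), which is 1.63% of them. There were 93 genes higher in SRFHKO with PE (0.737% of genes tested) and 113 lower (0.896%), and 26 of the first and 33 of the second differed at least 2-fold. In each of the 206 genes the 3 SRFHKO arrays did not overlap the 3 control arrays. Over all genes tested, 9.71% lay wholly higher and 10.5% wholly lower in SRFHKO with PE. An unadjusted p under 0.05 was reached by 1845 genes. The count depended on single arrays: it was 47 without SRFHKO with PE array 2, 81 without control with PE array 1 and 77 without control with PE array 3.

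Levels are given as scaled signal, the array intensity brought to a common level, in arbitrary units, and differences as SRFHKO with PE minus control with PE on the log2(scaled signal + 2) scale with their standard error. The 6 arrays correlated with each other between 0.948 and 0.970 over genes. Before scaling, the trimmed mean intensity was 75.9 to 85.4 in SRFHKO with PE arrays and 52.5 to 75.3 in control with PE arrays, without overlap (exact permutation test, two-sided, p = 0.1, the smallest that 3 against 3 allow). With this array brightness, as the log2 of the trimmed mean, as a covariate, 56 genes passed the threshold. Ratios of 3' to 5' probe sets, a sign of RNA integrity, overlapped between the groups for Gapdh (0.824 to 0.863 in SRFHKO with PE, 0.846 to 0.900 in control with PE) and for Actb (1.87 to 2.31 in SRFHKO with PE, 1.75 to 2.02 in control with PE). The cardiomyocyte markers were well measured, with all 18 of the list above the filter on low signal, which is the tissue the labels name.

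Srf itself had a signal of 162, 161 and 179 in SRFHKO with PE hearts, against 209, 233 and 145 in control with PE hearts. The groups overlapped, with a difference of -0.19 ± 0.19 (SE, adjusted p = 0.703), and the other probe set of Srf gave 0.02. No source at hand tells whether either probe set lies in the part of Srf that is deleted, so Srf does not check the genotype labels. The estrogen receptor gene Esr1 read 144, 91.0 and 120 in SRFHKO with PE hearts, against 2.82, 12.3 and 13.2 in control with PE hearts. It was at least 8.61-fold higher, with 1 control array below the filter limit (difference 3.54 ± 0.77, adjusted p = 0.0233). The other probe set of Esr1 differed by 0.03 ± 0.35 (adjusted p = 0.983; p-values of second probe sets are adjusted over all 27022 probe sets tested). As background, tamoxifen-activated Cre proteins are fusions with a mutated ligand-binding part of the estrogen receptor; whether the first probe set reads the transcript of such a fusion was not tested.

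Since SRF acts through CArG boxes, the promoters of the genes that fell were searched for them. The motif was CC, 6 bases that are each A or T, then GG, on both strands, in RefSeq promoters of GRCm38.p6 from 250 bases before to 50 bases after the start site. Of the 113 genes that fell, 91 had a promoter entry and 6 of these held the motif (6.59%), namely Acta1, Asb2, Gstp1, Ldb3, Myl3 and Myom1. Of the 93 that rose, 76 had an entry and 1 held it (Pdgfc, 1.32%). Among all tested genes with an entry the motif was in 161 of 10155 (1.59%). Of all 32851 promoters in the table, 1.63% held it. The promoters of Acta1, Myl3 and Asb2 are shown as examples of fallen muscle genes that hold the motif; Asb2 was chosen after its values were seen. The motif is in capitals.
Acta1, chr8:123894726-123895025, minus strand: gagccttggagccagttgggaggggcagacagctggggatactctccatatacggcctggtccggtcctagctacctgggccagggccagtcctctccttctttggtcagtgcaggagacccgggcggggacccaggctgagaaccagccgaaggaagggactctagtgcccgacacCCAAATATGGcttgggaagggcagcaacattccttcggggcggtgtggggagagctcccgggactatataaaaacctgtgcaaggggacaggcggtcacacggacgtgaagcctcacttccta
Myl3, chr9:110763428-110763727, plus strand: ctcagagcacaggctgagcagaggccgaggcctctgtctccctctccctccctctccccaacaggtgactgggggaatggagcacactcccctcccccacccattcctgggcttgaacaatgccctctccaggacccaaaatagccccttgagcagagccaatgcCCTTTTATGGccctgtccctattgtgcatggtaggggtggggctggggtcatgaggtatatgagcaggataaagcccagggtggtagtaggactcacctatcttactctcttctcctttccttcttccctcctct
Asb2, chr12:103355952-103356251, minus strand: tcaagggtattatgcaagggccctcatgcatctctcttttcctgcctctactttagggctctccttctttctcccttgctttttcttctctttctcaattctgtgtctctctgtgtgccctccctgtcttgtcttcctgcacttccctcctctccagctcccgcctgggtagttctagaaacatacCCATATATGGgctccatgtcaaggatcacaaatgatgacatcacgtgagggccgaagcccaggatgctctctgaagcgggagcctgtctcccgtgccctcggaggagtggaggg
The motif begins 73 bases before the start site in Acta1, 85 in Myl3 and 64 in Asb2. A match is a description of these letters and not a binding site. The M-CAT element, CATTCC on either strand, was in 20.9% of the fallen genes' and 14.5% of the risen genes' promoters, beside 14.7% of those of all tested genes.

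Sarcomeric and SRF-linked genes. The gene list of SRF-linked actin and cytoskeletal genes had 39 tested members, of which 3 fell (Acta1, Itgb1bp2 and Pdlim7), none rose and 36 did not pass. The 3 falls were 7.69% of the list, beside 0.896% of all genes. The list's median difference was 0.01, beside -0.0045 over all genes. Acta1, the skeletal muscle form of alpha-actin, had a signal of 759, 549 and 360 in SRFHKO with PE hearts, against 2112, 2820 and 2900 in control with PE hearts. All 3 SRFHKO arrays lay under every control array, and the level was 4.85-fold lower (-2.28 ± 0.36, adjusted p = 0.00255). Itgb1bp2 (melusin), a muscle chaperone that binds beta-1 integrin, read 435, 438 and 365 in SRFHKO with PE hearts, against 1657, 1806 and 1527 in control with PE hearts. This was 4.02-fold lower (-2.01 ± 0.21, adjusted p = 0.000132) with little spread within either group. Pdlim7, a PDZ and LIM domain scaffold of actin filaments, read 111, 71.1 and 60.02 in SRFHKO with PE hearts, against 229, 180 and 205 in control with PE hearts, and fell by 1.36 ± 0.20 (adjusted p = 0.00173), though its other probe sets gave 0.20 and 0.06 and the mean of its probe sets did not pass. Cardiac alpha-actin (Actc1) missed the threshold (8059, 8320 and 8070 in SRFHKO with PE hearts, against 10974, 9555 and 12491 in control with PE hearts; -0.43 ± 0.11, adjusted p = 0.0552).

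Of 34 sarcomere genes, 5 fell (14.7%, beside 0.896% of all genes), none rose and the median was -0.13. Besides Acta1 these were the troponin C gene Tnnc1, the light chain gene Myl3, the Z-disc gene Ldb3 and the M-band gene Myom1. Tnnc1, the calcium sensor of the thin filament, read 4640, 5249 and 5643 in SRFHKO with PE hearts, against 8434, 8137 and 9081 in control with PE hearts (-0.73 ± 0.09, adjusted p = 0.000445). Myl3, whose promoter is printed above, read 5697, 6721 and 7595 in SRFHKO with PE hearts, against 11975, 10307 and 12692 in control with PE hearts (-0.81 ± 0.11, adjusted p = 0.000983). Both were lower in all 3 arrays. Ldb3 fell by 0.46 (adjusted p = 0.0305), but its other probe sets gave 0.04 and -0.13. The Ldb3 call held in 6 of 17 alternative settings and in none of the 6 that left out an array. Myom1 fell by 0.47 (adjusted p = 0.0442). Asb2, a subunit of a ubiquitin ligase known for degrading filamin in muscle, was not in a list and fell by 1.07 ± 0.12 (1152, 862 and 1102 in SRFHKO with PE hearts, against 2306, 2128 and 2051 in control with PE hearts, adjusted p = 0.000194). The alpha and beta myosin heavy chains Myh6 and Myh7 did not pass: Myh6 read -0.31 ± 0.10 (adjusted p = 0.11) with the groups apart, and Myh7 -0.34 ± 0.38 (adjusted p = 0.754) with the groups overlapping. The median of the cardiomyocyte markers was -0.21 and all 18 were below 0, 2 of them past the threshold (Tnnc1 and Myl3, which are also in the sarcomere list). Their summed signal lay lower in every SRFHKO with PE array (125859 to 133606 in SRFHKO with PE, 141959 to 168860 in control with PE). Fewer cells of a type and less RNA per cell cannot be told apart in bulk ventricle. The medians moved with the scaling: under quantile normalisation they were 0.03 for sarcomere genes and -0.02 for cardiomyocyte markers.

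**Figure D1:**
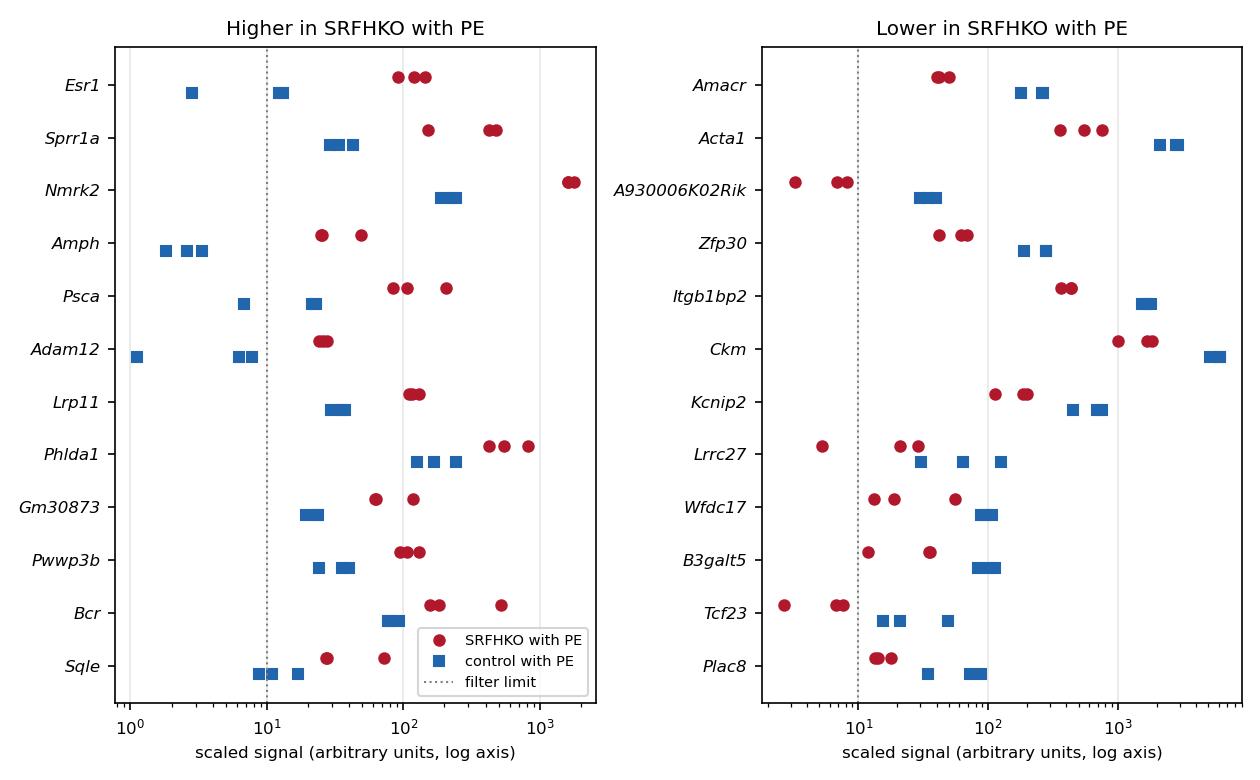
The 12 genes with the largest rises (left) and the 12 with the largest falls (right) among genes past the threshold, as scaled signal on a log axis in arbitrary units, with 1 point per heart for SRFHKO with PE (red circles) and control with PE (blue squares). The groups do not overlap in any of the 24 genes, and the dotted line marks the filter limit of 9.94, below which all 3 arrays of the dimmer group lie for Amph, Adam12, A930006K02Rik and Tcf23.

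The largest rises were in genes of different function. Sprr1a, a small proline-rich protein known to rise in stressed heart muscle cells, read 425, 474 and 152 in SRFHKO with PE hearts, against 33.9, 28.8 and 42.5 in control with PE hearts, which was 8.60-fold higher (3.10 ± 0.36, adjusted p = 0.000194). Nmrk2, a muscle kinase that makes the NAD precursor nicotinamide mononucleotide from nicotinamide riboside, read 1616, 1770 and 1597 in SRFHKO with PE hearts, against 244, 223 and 188 in control with PE hearts. It was 7.59-fold higher (2.92 ± 0.36, adjusted p = 0.000401). Both were higher in 3 of 3 arrays than in any control. Nampt, the rate-limiting enzyme of the main salvage route to NAD, did not pass (-0.08 ± 0.15, adjusted p = 0.871). Of 26 NAD synthesis and use genes, Nmrk2 passed (3.85% of the list, beside 1.63% of all genes) and 25 did not. The median was -0.07.

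Amph, the membrane-bending protein amphiphysin, was at least 2.80-fold higher, Psca, a GPI-anchored surface protein, at least 6.47-fold, and the metalloprotease Adam12 at least 2.32-fold, since control arrays read near or below the filter limit. Lrp11, a receptor of the LDL receptor family, rose 3.35-fold (130, 115 and 111 in SRFHKO with PE hearts, against 35.7, 37.1 and 29.6 in control with PE hearts), with adjusted p = 0.00181. Phlda1, a pleckstrin homology-like protein that responds to growth signals, rose 3.33-fold (425, 823 and 549.5 in SRFHKO with PE hearts, against 167, 243 and 125 in control with PE hearts). Pwwp3b rose 3.23-fold, Gm30873 3.30-fold and Bcr 2.95-fold, the last with 1 array at 520 beside 158 and 183. The other 2 probe sets of Bcr read 0.20 (adjusted p = 0.929) and 0.28 (adjusted p = 0.651), and Bcr did not pass with its probe sets averaged (0.68, adjusted p = 0.219) or with the 6 PE arrays alone. Sqle, the squalene epoxidase of cholesterol synthesis, was at least 2.80-fold higher.

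Among the largest falls, Ckm, the muscle creatine kinase that regenerates ATP from phosphocreatine, read 1007, 1665 and 1825 in SRFHKO with PE hearts, against 6157, 5141 and 6118 in control with PE hearts. It was 3.98-fold lower (-1.99 ± 0.22, adjusted p = 0.000194). Kcnip2, a subunit of the channels of the transient outward potassium current, read 113, 201 and 187 in SRFHKO with PE hearts, against 757, 454 and 696 in control with PE hearts (3.81-fold lower, adjusted p = 0.000729). Its second probe set gave -1.96 (adjusted p = 0.0012). Kcnd3, a pore subunit of the same current, rose by 0.76 ± 0.15 (adjusted p = 0.0118), but its other probe set read -1.57 ± 0.57 (adjusted p = 0.221). Of 22 potassium and sodium channel genes 1 rose and 1 fell (9.09%, beside 1.63% of all genes), with a median of 0.01. Amacr, a racemase for branched-chain fatty acids, was 5.09-fold lower (-2.35 ± 0.55, adjusted p = 0.0372). Its call held in 9 of 17 alternative settings, and of those that left out an array only without control with PE array 2. The zinc finger gene Zfp30 was 4.23-fold lower. The other probe set of Zfp30 read -0.07 (adjusted p = 0.970), and with its probe sets averaged Zfp30 did not pass (-1.07, adjusted p = 0.0888). Wfdc17 was 3.74-fold lower, Plac8 3.69-fold and B3galt5 3.74-fold, the last with another probe set at 0.50 ± 0.63. A930006K02Rik, Lrrc27 and Tcf23 were lower by at least 3.05-, 3.19- and 2.29-fold, bounds that allow for dim signal and not for the spread between hearts. Their calls held in 3 of 16, 4 of 17 and 3 of 16 alternative settings, and without SRFHKO with PE array 1 Lrrc27 read -1.29 (adjusted p = 0.172).

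Energy metabolism genes mostly read lower in SRFHKO with PE hearts, by small amounts. Of 74 oxidative phosphorylation genes, 15 fell (20.3%, beside 0.896% of all genes), none rose and 72 differences were below 0; the median was -0.29. The 3 SRFHKO with PE hearts had a list median of 11.95, 11.98 and 12.07 on the log2 scale, against 12.35, 12.28 and 12.40 in control with PE hearts, so that the groups did not overlap. Ndufa6, a subunit of complex I, read 2173, 2361 and 2532 in SRFHKO with PE hearts, against 3641, 3090 and 3185 in control with PE hearts (-0.49 ± 0.08, adjusted p = 0.00477). Ndufv2 fell by 0.42 (adjusted p = 0.0116), Ndufs7 by 0.59 (adjusted p = 0.0117) and the complex III subunit Uqcrfs1 by 0.46 (adjusted p = 0.0116). The 15 that fell were spread over complex I (10 genes, such as Ndufa6), complex III (Uqcrc1, Uqcrfs1, Cyc1) and the ATP synthase (Atp5a1, Atp5g1). In all, 61 of the 74 had an unadjusted p under 0.05 downward, beside 1845 of all 12616 genes in either direction.

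Of 34 TCA cycle and pyruvate oxidation genes, 4 fell: the succinyl-CoA ligase subunit Suclg1 (-0.50 ± 0.09, adjusted p = 0.00829), the aminotransferase Got1 (-0.59 ± 0.12, adjusted p = 0.0129), citrate synthase Cs (-0.43 ± 0.09, adjusted p = 0.014) and Pdk2, a kinase that inhibits pyruvate dehydrogenase (-0.49 ± 0.11, adjusted p = 0.0245). These 4 were 11.8% of the list, beside 0.896% of all genes that fell. The median was -0.29 and 31 of 34 were below 0. Of 40 fatty acid uptake and oxidation genes, 3 fell (7.5%, beside 0.896% of all genes), with a median of -0.27. These were Acadvl, the first enzyme of long-chain beta-oxidation (2551, 2651 and 2981 in SRFHKO with PE hearts, against 3844, 3840 and 3926 in control with PE hearts, adjusted p = 0.00725), the electron transfer subunit Etfb and the isomerase Eci1. Glycolysis, glycogen and cytosolic ribosomal genes had none past the threshold in either direction, with medians of -0.13, 0.07 and -0.14. Of the 35 ribosomal genes, 31 were below 0. Their summed signal was 100425 to 111381 in SRFHKO with PE hearts and 113677 to 116591 in control with PE hearts, without overlap. The ribosomal median was 0.06 without PE, and with PE it was -0.003 under quantile normalisation.

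Of 26 genes of the PPAR, PGC-1, ERR and AMPK list, which holds transcriptional regulators of oxidative metabolism, 3 fell (11.5%, beside 0.896% of all genes) and none rose. Ppara, the nuclear receptor that activates fatty acid oxidation genes, read 142, 109 and 153 in SRFHKO with PE hearts, against 315, 306 and 327 in control with PE hearts (2.35-fold lower, -1.23 ± 0.22, adjusted p = 0.0085). The coactivator gene Ppargc1b was 2.12-fold lower (-1.08 ± 0.19, adjusted p = 0.00674) and the retinoid receptor gene Rxrg 1.58-fold (-0.66 ± 0.15, adjusted p = 0.028). Ppargc1a, the other PGC-1 coactivator, read -0.52 (adjusted p = 0.164) and did not pass.

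The energy genes are among the brightest on the arrays: 73 of the 74 oxidative phosphorylation genes fell in the brightest decile. In that decile 1139 genes belonged to none of the 3 energy lists, and their median was -0.03, with 56.3% below 0 and 32 lower calls. The decile spanned log2 levels of 9.33 to 13.6, while the oxidative phosphorylation array medians with PE lay between 11.95 and 12.40. The 1139 genes were thus not matched to the energy genes in brightness. Medians of other bright lists were -0.14 (ribosomal), -0.21 (cardiomyocyte markers) and 0.16 (hypertrophy and fetal). The part of gene brightness was not tested. The energy medians depended on the scaling, with -0.12 for oxidative phosphorylation, -0.20 for TCA cycle and -0.22 for fatty acid genes under quantile normalisation. The calls depended on single arrays too. Without SRFHKO with PE array 2, 1 oxidative phosphorylation, 1 TCA cycle and 1 fatty acid gene passed; without control with PE array 3, 1, 1 and 2; without control with PE array 1, 3, 1 and 1; and without SRFHKO with PE array 1, 4, 3 and 2. With the trimmed mean of each array before scaling as a covariate, 1 gene of each list passed. That covariate is a brightness of arrays and not of genes. It did not overlap between the PE groups, so it cannot be told apart from the deletion.

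**Figure D2:**
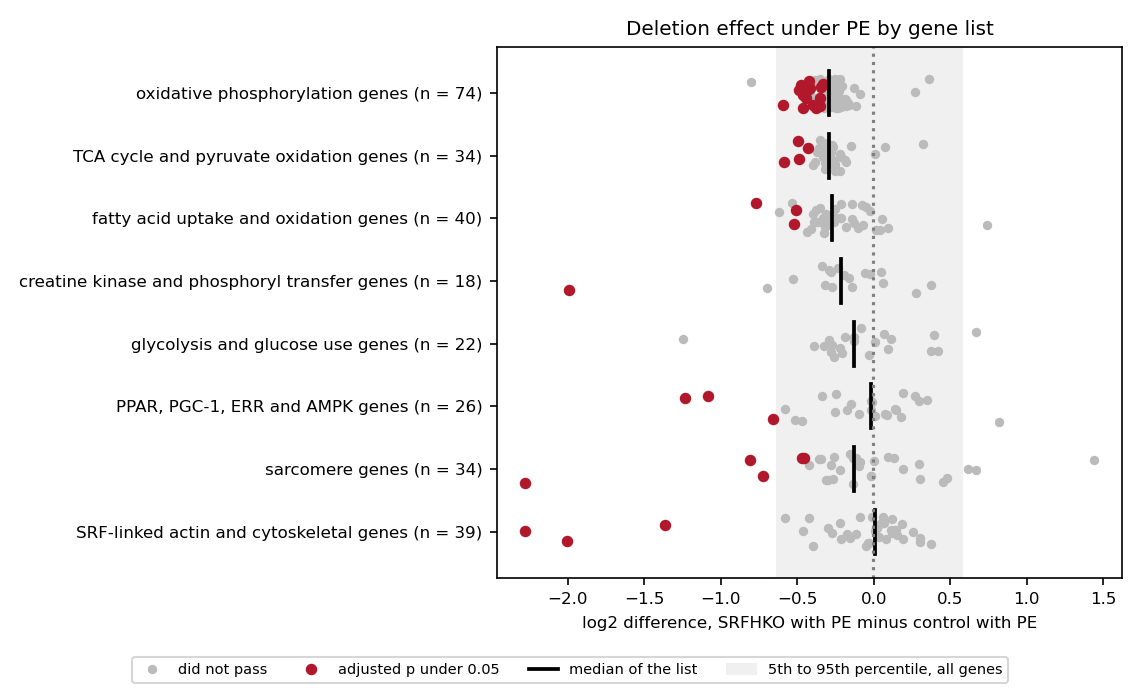
Log2 difference of SRFHKO with PE minus control with PE for each member of 8 gene lists, with members past the threshold in red, other members in grey, the list median as a black bar, the median of all genes as a dotted line and the 5th to 95th percentile of all genes shaded. Of the 74 oxidative phosphorylation genes, 72 lie below 0 and 15 passed, while the SRF-linked list has a median of 0.01 with 3 members far to the left.

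Signalling and hypertrophy genes changed in few members. The hypertrophy and fetal list of 16 had 2 rises (Sprr1a and Rcan1) and 1 fall (Acta1), 18.75% of the list beside 1.63% of all genes. None of the 16 natriuretic, angiotensin and endothelin genes passed. Nppa differed by -0.07 ± 0.16 (adjusted p = 0.9) and Nppb by 0.25 ± 0.28 (adjusted p = 0.765), both with overlapping groups. Rcan1, an inhibitor of the phosphatase calcineurin that calcineurin activity raises, read 1225, 3622 and 2290 in SRFHKO with PE hearts, against 1026, 848 and 949 in control with PE hearts (2.31-fold higher, adjusted p = 0.0314). The Rcan1 call held in 8 of 17 alternative settings, and its other probe set gave 1.54 (adjusted p = 0.0157). Of 26 adrenergic receptor and Gq signalling genes, Grk5 rose alone (3.85% of the list, beside 1.63% of all genes). Grk5, a kinase that desensitises G protein-coupled receptors, read 636, 655 and 693 in SRFHKO with PE hearts, against 193, 270 and 308 in control with PE hearts (2.60-fold higher, 1.38 ± 0.20, adjusted p = 0.00154). Map2k3, a kinase upstream of p38, rose by 0.50 (adjusted p = 0.0118). No gene of the calcium cycling, immediate early or SRF cofactor lists passed, with Atp2a2, the sarcoplasmic reticulum calcium pump, at -0.35 ± 0.10 (adjusted p = 0.0942).

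Of 33 antioxidant and metallothionein genes, 1 rose and 2 fell (9.09%, beside 1.63% of all genes), and the list's median was -0.03. Gpx3, the secreted glutathione peroxidase, read 4074, 3473 and 3056 in SRFHKO with PE hearts, against 1369, 1366 and 1431 in control with PE hearts (2.53-fold higher, adjusted p = 0.000763). Sod2, the mitochondrial superoxide dismutase, fell by 0.55 (adjusted p = 0.0126) and Mt1, a metallothionein, by 1.03 (adjusted p = 0.0259). Of 28 cell death genes, 2 that inhibit apoptosis rose, Bcl2 by 0.84 ± 0.17 (adjusted p = 0.0152) and Bcl2l2 by 0.63 ± 0.12 (adjusted p = 0.00922, with another probe set at -0.05), and Bcl2l11, which promotes it, fell by 0.88 ± 0.19 (adjusted p = 0.0261). The calls were 10.7% of the cell death list, beside 1.63% of all genes. The list's median was -0.05, with 14 members above 0 and 14 below. Bcl2 read 237, 196 and 179 in SRFHKO with PE hearts, against 122, 111 and 103 in control with PE hearts. Other probe sets of Bcl2 gave 1.07 (adjusted p = 0.0245), 0.58 (adjusted p = 0.557), 0.55 (adjusted p = 0.518) and 0.21 (adjusted p = 0.870). The Bcl2 call held in 12 of 17 alternative settings and was lost with its probe sets averaged. Those of Bcl2l11 gave -0.84, -0.77, -0.64 and -0.44 for the probe sets not chosen, none of which passed. Fbxo32, a muscle ubiquitin ligase, had a difference of 0.54 (adjusted p = 0.0475), a call that held in 4 of 17 alternative settings and in none of the 6 that left out an array. Its other probe sets gave 0.36 (adjusted p = 0.397) and 0.47 (adjusted p = 0.353). Few matrix genes passed. Of 22 collagen genes 1 rose (4.55%, beside 1.63% of all genes), the basement membrane chain gene Col4a5 (0.64, adjusted p = 0.00906). No member of the 36 matricellular or 29 TGF-beta genes passed, and Postn, a fibroblast activation marker, read 0.31 ± 0.34 (adjusted p = 0.754).

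The interferon response and antigen presentation list had a median of -0.93 over 40 genes, but none passed the adjusted threshold. An unadjusted p under 0.05 downward was reached by 23 of them, beside 1845 of all 12616 genes in either direction. The leading members were Igtp (-1.45, adjusted p = 0.0701) and Ifit3 (-2.56, adjusted p = 0.0887). Its median level was 7.06, 7.10 and 6.81 in SRFHKO with PE hearts, against 8.32, 7.18 and 8.27 in control with PE hearts. Control with PE array 2 thus lay near the SRFHKO arrays and the other 2 controls more than 1 unit above them. Without PE the list median was -0.90, and 10 members were called lower; the array medians were 6.30 to 7.98 in SRFHKO hearts and 7.53 to 8.14 in control hearts. No member passed the interaction.

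**Figure D3:**
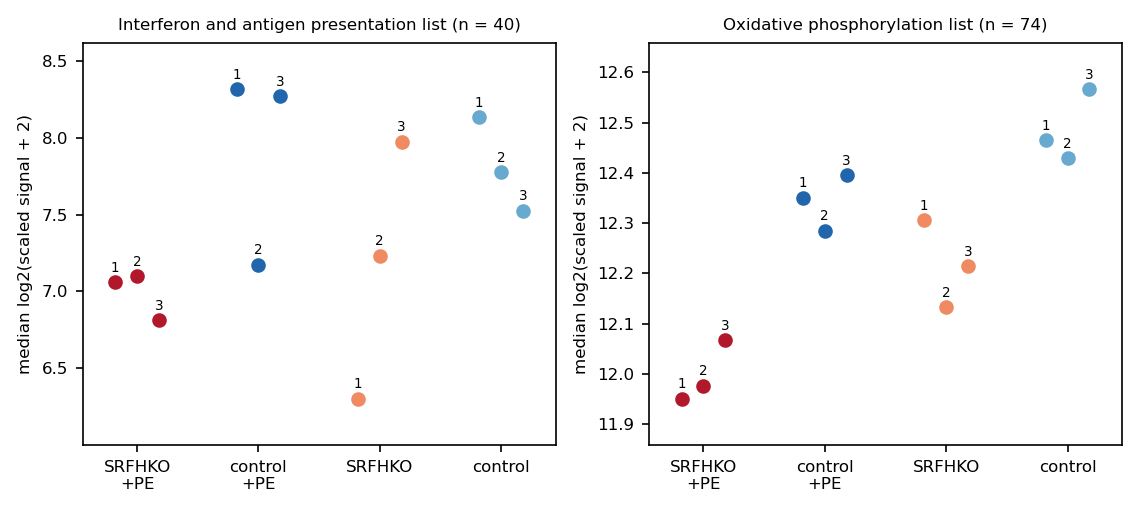
Median log2(scaled signal + 2) of the interferon and antigen presentation list (left) and of the oxidative phosphorylation list (right) in each of the 12 arrays of day 25, with the replicate number beside each point. The oxidative phosphorylation median is lowest in the 3 SRFHKO with PE hearts (11.95 to 12.07) and is also lower in SRFHKO (12.13 to 12.31) than in control hearts (12.43 to 12.57) without PE, while in the interferon list control with PE array 2 at 7.18 lies near the SRFHKO with PE hearts.

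Among the marker lists of other cell types no member passed, except Acta1 in the skeletal muscle list. The summed signal of 16 macrophage and monocyte markers was 3904 to 4398 in SRFHKO with PE hearts and 4447 to 5256 in control with PE hearts, and that of 6 mesothelial and epicardial markers was 146 to 195 in SRFHKO with PE hearts and 105 to 117 in control with PE hearts, neither overlapping. Of the neutrophil list, 2 of 8 markers were tested, S100a8 (18.3, 18.2 and 29.8 in SRFHKO with PE hearts, against 105, 119 and 49.6 in control with PE hearts, adjusted p = 0.11) and S100a9. Sums of fibroblast, endothelial, smooth muscle and atrial markers overlapped. The part of these cell types in the results was not tested.

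The deletion effect under PE was set beside that without PE. Without PE, 295 genes passed (2.34%), 159 higher (1.26%) and 136 lower (1.08%). The 2 comparisons share no arrays. Both come from 1 fit that gives a gene the same standard error in each, so their calls are not independent. The 2 comparisons had 65 called genes in common, all in the same direction (29 higher, 36 lower). That is 31.6% of the calls with PE and 22.0% of those without. Of the 206 genes called with PE, 193 had the same sign without PE and 13 the opposite sign, beside 62.4% with the same sign over all genes tested. The median size of the 206 was 0.71 with PE and 0.40 in the same direction without PE, where the choice of the 206 on the PE arrays favours the first. The energy lists also read lower without PE. There, 10 oxidative phosphorylation genes were called lower and 1 higher, with a median of -0.26 and array medians of 12.13 to 12.31 in SRFHKO hearts, against 12.43 to 12.57 in control hearts. Of these genes 7 were called lower with and without PE. Of the TCA cycle list 5 genes were called lower without PE (median -0.19), 3 of them also with PE, and of the fatty acid list 1 (median -0.18), also called with PE. No gene of these lists passed the interaction. Ckm read -1.99 with PE and -2.06 without, Kcnip2 -1.93 and -1.87, and Itgb1bp2 -2.01 and -1.68, and the difference of the effects did not pass for any of them (adjusted p = 0.972, 0.98 and 0.839). For Nmrk2 the value was 2.92 with PE and 4.32 without, where the control hearts read 244, 223 and 188 with PE, against 60.9, 41.8 and 66.1 without PE; the difference of the 2 effects was -1.40 ± 0.51 and did not pass (adjusted p = 0.587). For Acta1 it was -2.28 with PE and -1.43 without, with a difference of -0.84 ± 0.51 (adjusted p = 0.752).

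**Figure D4:**
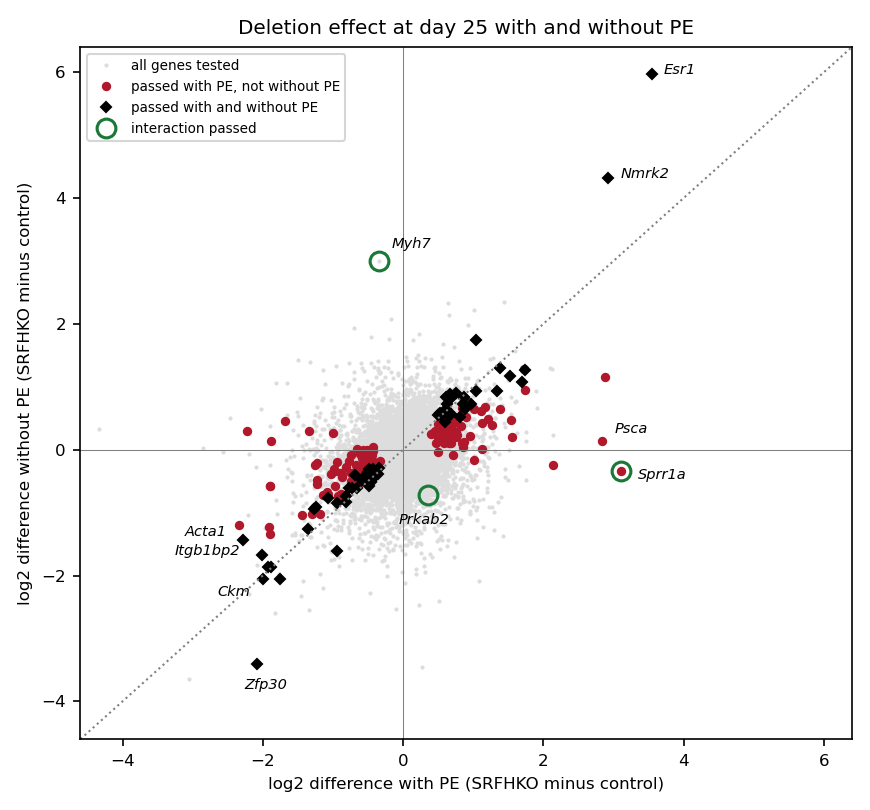
Log2 difference of SRFHKO minus control at day 25 with PE (x axis) and without PE (y axis) for all genes tested (grey), genes past the threshold with PE and not without (red), genes past it in both (black diamonds) and the 3 genes whose effects differ by the interaction test (green circles). The 65 genes passed in both lie in the upper right and lower left quadrants, and the dotted line marks equal effects.

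The interaction, the deletion effect with PE minus that without PE, passed for 3 genes (0.0238%), while 947 had an unadjusted p under 0.05. Sprr1a rose with deletion under PE and read 20.5, 20.7 and 32.8 in SRFHKO hearts without PE, against 26.2, 25.0 and 45.6 in control hearts without PE, so that the high level was seen in SRFHKO with PE hearts (interaction 3.45 ± 0.51, adjusted p = 0.0271). Myh7 read 5092, 6312 and 5144 in SRFHKO with PE hearts, 8254, 6012 and 6816 in control with PE hearts and 5394, 6468 and 5055 in SRFHKO hearts without PE, against 561, 678 and 900 in control hearts without PE. The first 3 groups were high and the day 25 controls without PE low (interaction -3.34 ± 0.54, adjusted p = 0.0278). Controls without PE were not low at day 8, with Myh7 at 3785 and 3930. The SRFHKO hearts of day 8 read 2628, 8204, 1720 and 6569. Prkab2, a regulatory subunit of AMP-activated kinase, read 309, 326 and 280 in SRFHKO with PE hearts and 254, 252 and 212 in control with PE hearts, and 207, 159 and 185 in SRFHKO hearts without PE and 279, 317 and 313 in control hearts without PE (interaction 1.07 ± 0.17, adjusted p = 0.0278). It was lower in SRFHKO without PE (-0.72, adjusted p = 0.00518) and did not pass with PE (0.35, adjusted p = 0.164). Its other probe sets gave interactions of 0.76 and 0.59. The next 2 genes by p, Gpr22 (-2.14 ± 0.42, adjusted p = 0.237) and Itga9 (1.23 ± 0.25, adjusted p = 0.239), did not pass. The 3 calls depended on the array left out, with counts of 0 to 7 over 12 such fits.

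**Figure D5:**
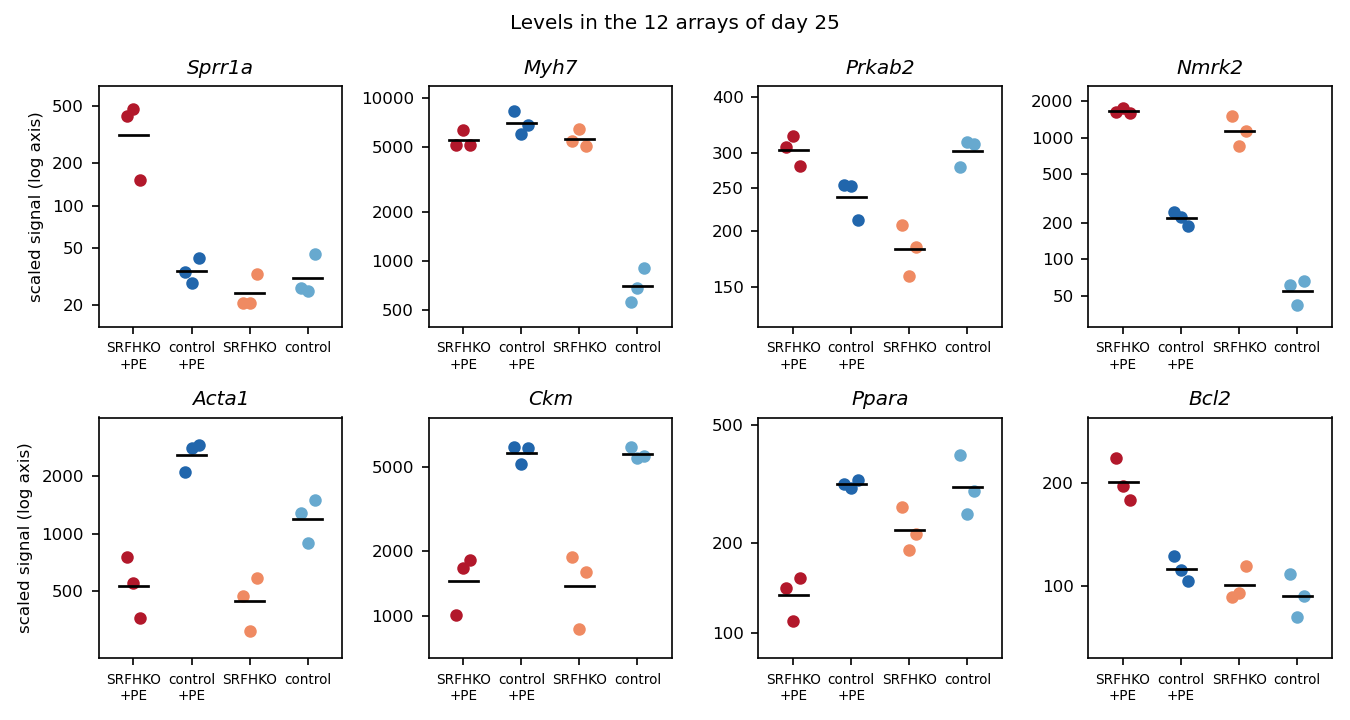
Scaled signal (log axis, arbitrary units) in the 12 arrays of day 25 for 8 genes, in SRFHKO with PE, control with PE, SRFHKO and control hearts, with 1 point per heart and the bar at the mean on the log2 scale. Sprr1a is high in SRFHKO with PE hearts, Myh7 is low in control hearts without PE, and Ckm is low in both SRFHKO groups.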

How the data were processed

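Expression in cardiac ventricles was read on Affymetrix arrays, with total RNA extracted with Trizol and hybridised as biotin-labelled cRNA, per the labels' protocols. The deposited table holds a linear intensity per probe set, which came from GCOS, the scanner software, per the submitters' processing notes. Its version, signal algorithm and scaling target were not given in these sources. For the 18 arrays the deposited intensity had trimmed means between 46.6 and 148. A common 2% trimmed mean of 90.6 was therefore set on every array, a pseudocount of 2 was added and log2 was taken. Fold changes on this scale understate those of dim genes. Of 45101 probe sets, 64 controls and those whose mean lay under the 40th percentile (log2 3.58, signal 9.94) were left out, leaving 27022. Probe sets were named by the annotation of the platform, with symbols brought up by gene ID to RefSeq names of GRCm38.p6 for 34741 of 34945 probe sets with 1 symbol; 932 had several symbols and 9160 none. Each gene took its probe set of highest mean, an _x_at one if there was no other, giving 12616 genes.

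A mean per group was fitted over all 18 arrays (12 residual degrees of freedom) with limma 3.58.1 in R 4.3.3 (data.table, version 1.17.8), empirical Bayes with an intensity trend, and p-values adjusted by Benjamini-Hochberg over all genes. The steps were tested on simulated data. A fold is a lower bound where arrays of the dimmer group lay below the filter limit and were raised to it. The genes named were the 12 largest rises and 12 largest falls among called genes whose groups do not overlap, 15 core genes, up to 4 passing and 2 other members per list described, and the 5 of smallest p for the interaction. The members and the 47 lists (31 pathway, 16 marker) were chosen with earlier results of these data known; lists are described by counts and medians. Precision is limited by the number of arrays. Alternatives changed scaling, pseudocount, filter, samples in the fit, replicate block, probe set choice, a covariate of array brightness, the intensity trend and each array in turn.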

Additional observations from a re-analysis of the deposited data

Results flagged for a closer look

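The deletion effect differed with and without PE by the interaction test in 3 genes, which is what marks them here. The difference was 3.45 on the log2 scale for Sprr1a, 1.07 for Prkab2 and -3.34 for Myh7. The number of alternative settings, of 22, in which the adjusted p stayed under 0.05 was 14 for Sprr1a, 9 for Prkab2 and 8 for Myh7.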

How the results depend on the processing

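Direction and call were followed for 54 named genes past the threshold under up to 17 alternatives; 16 kept their call in all of them, among them Sprr1a, Nmrk2, Acta1, Itgb1bp2, Ckm, Kcnip2, Tnnc1, Myl3, Grk5 and Gpx3, and 38 lost it somewhere. Kcnd3 changed sign (-0.41) when its probe sets were averaged. Among genes not called, Nppa turned to 0.17 under quantile normalisation, 0.12 with the brightness covariate and Nampt to 0.096 with the covariate. Leaving out arrays, Nppa ranged between -0.16 and 0.030, Nampt between -0.26 and 0.11 and Ankrd1 between -0.077 and 0.14. The count of 206 (93 higher, 113 lower) was 130 (48 higher) with the 6 PE arrays, 56 (27 higher, 29 lower) with the covariate, 73 (38 higher, 35 lower) without the trend, 251 for probe sets tested singly (added after seeing the data) and 47 to 205 leaving out arrays (22 to 84 higher, 25 to 121 lower). Falls among oxidative phosphorylation genes (15) were 4 under quantile normalisation, 6 without a filter, 7 with the 6 arrays, 1 with the covariate, 1 without the trend and 1 to 14 leaving out arrays. Falls among TCA cycle genes (4) were 7 under the 60th percentile filter, 1 with the covariate, 1 without the trend and 1 to 5 leaving out arrays. Falls among fatty acid genes (3) were 6 with the 12 arrays of day 25, 1 with the covariate, 1 without the trend and 1 to 4 leaving out arrays. The interaction count of 3 was 1 with averaged probe sets, 0 without the trend and 0 to 7 leaving out arrays. The cause of these changes was not tested. Gene levels of same-numbered hearts with PE did not deviate together (correlations 0.003, -0.002 and 0.054), which cannot tell whether the numbers pair the hearts. Before scaling, the trimmed mean was highest in array 2 and lowest in array 3 of every day 25 group. For arrays 1, 2 and 3 it was 78.5, 85.4 and 75.9 in SRFHKO with PE and 67.6, 75.3 and 52.5 in control with PE. Whether same-numbered arrays were handled together was not tested. With the replicate block 184 genes passed, 158 of them among the 206. Dim signal limits what can be measured for genes close to the filter.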

Other observations

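Tested singly, 27022 probe sets gave 251 calls with PE (111 higher, 140 lower), of which 231 had 1 gene symbol, 4 several and 16 none. The probe set annotated to both Myh7 and Myh6 fell by 0.70 on the log2 scale. Of the genes outside the lists, Prkg1, the cGMP-dependent kinase that relaxes smooth muscle, rose by 1.53 ± 0.21 (516, 321 and 336 in SRFHKO with PE hearts, against 107, 163 and 129 in control with PE hearts, adjusted p = 0.000983). Hif1a, the oxygen-regulated transcription factor, rose by 0.69 ± 0.16 (adjusted p = 0.0384). Pdgfc, a growth factor for platelet-derived growth factor receptors, rose by 1.27 ± 0.31 (adjusted p = 0.0445). Gstp1, a glutathione transferase with a near-identical copy in the mouse genome, fell by 0.66 ± 0.09 (adjusted p = 0.000842). These 4 were chosen after their values were seen.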
